A study of Mus musculus with 12 samples.

Results

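The kinesins are motor proteins that move along microtubules on the energy of ATP, and here they are described in the anterior prostate of APT121 and wild type mice. Every gene whose symbol is Kif followed by a digit was taken, which gave 38 genes of the 19935 tested. By their known roles, 11 of them are mitotic motors, 10 are cargo motors, 9 are motors of cilia and centrioles, 7 have other roles and 1, Kif4-ps, is a pseudogene.

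Mitotic kinesins build and shape the spindle, carry and align chromosomes and complete the division of the cell body, and their transcripts are made mostly in cells that are about to divide. Cargo kinesins carry vesicles, mitochondria and other loads toward the plus ends of microtubules in resting and dividing cells alike, most heavily in neurons. Ciliary kinesins extend, trim or signal through the cilium, which a cell takes down before it divides.

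The APT121 transgene encodes T121, a truncated SV40 large T antigen able to bind and inactivate pRb and its relatives, and is driven by the probasin promoter, which is active in prostate epithelium. Males of both genotypes were on a mixed background of C57BL/6J and DBA/2 (F3 generation), were given the AIN93G diet from 3 weeks of age and were killed at 12 weeks. RNA of 2 mice was combined for each Affymetrix Mouse Gene 1.0 ST array, so 8 APT121 mice gave 4 arrays and 16 wild type mice gave 8. Each replicate is thus a pool, and the spread behind a p-value is that between pools. Precision is limited by the number of arrays.

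Values are log2 of the RMA intensity of each array, a relative scale on which a step of 1 is a doubling. Differences are APT121 minus wild type ± SE. The limma fit gave the adjusted p-values (Benjamini-Hochberg over all genes, threshold 0.05). In whole tissue, a change in the number of cells of a type and a change of RNA per cell cannot be told apart. Levels of different genes are not ranked against each other, since each is read by its own probes. The median gene serves only as a mark of low signal, and summed markers are weighted toward the brightest probe sets.

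Markers of the labelled tissue were read on all arrays. The summed intensity of 8 luminal epithelial markers was 10273 to 11927 in wild type and 18423 to 19041 in APT121, with 6 markers higher and 1 lower. Myeloid markers were also higher (9 of 10), while 10 of 10 smooth muscle, 10 of 10 fibroblast, 8 of 10 endothelial and 6 of 8 basal markers were lower. Summed seminal vesicle markers stood at 15866 on wild type array 6, at 93.6 to 188 on the other 7 wild type arrays and at 1556 to 17965 in APT121. Summed nerve markers were 253 to 270 on wild type arrays 1 to 4, 352 to 618 on wild type arrays 5 to 8 and 338 to 486 in APT121. The part of these tissue differences in the kinesin differences was not tested. Over all genes, 52.8% passed the threshold, 22.8% higher and 30% lower in APT121, and the median difference was -0.09.

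All 11 mitotic kinesins were higher in APT121, by 2.86-fold to 14.5-fold, and for each of them the lowest APT121 array lay above the highest wild type array. Their median difference was 2.68. The wild type means of all 11 lay below the median gene (5.38), and no detection calls were used. Where a wild type reading is mostly background, the fold is smaller than the true change, so folds and their order describe the measured intensities. Of all genes, 5.73% were past the threshold and at least 2-fold higher, and 17.7% had all APT121 arrays above all wild type arrays. The exact permutation test gave p = 0.00202 (two-sided, unadjusted) for each of the 11, the smallest that groups of 4 and 8 arrays allow.

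**Figure D1:**
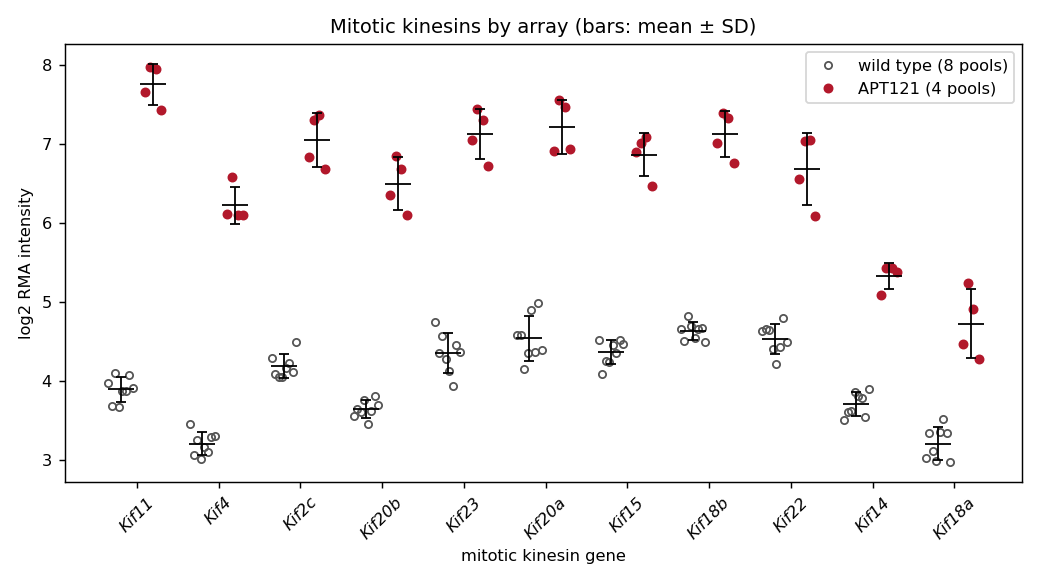
Log2 RMA intensity of the 11 mitotic kinesins on each array, with 8 wild type pools as open circles and 4 APT121 pools as filled circles, and with bars for the mean ± SD. For every gene the filled circles lie above all open circles.

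The promoters of these genes are shown first, since short motifs read by cell cycle factors are shared among them. CHR is the cell cycle genes homology region, bound by the MuvB core of the DREAM and B-MYB complexes. E2F sites are bound by the factors that pRb family proteins restrain, and CCAAT boxes are bound by NF-Y, which often acts together with a CHR. Both strands were searched for TTTGAA and TTCGAA (CHR), for TTTCCCGC, TTTGGCGC, TTTGCCGC and TTTCGCGC (E2F) and for CCAAT (NF-Y), and matches of different motifs overlapped at 0 places in the kinesin windows. RefSeq promoter windows of build GRCm38.p6, from 250 bases before to 50 bases after a transcript start, were found for 31 of the kinesin genes (35 windows). Kif1a, Kif1b, Kif9 and Kif2a have 2 windows each, which share sequence in all but Kif1a. Each stretch below runs 5′ to 3′ on the gene's strand from 80 bases before to 25 after the start, with motif matches in capitals. That of Kif2c runs from position -120 to -16 relative to the start, to include its match. The first 8 are mitotic kinesins with a CHR, in the order of their differences. Kif18a, the mitotic motor with the smallest difference, is shown for its E2F match in the absence of a CHR match, and Kif24 and Kif13a are the ciliary and cargo motors that were also more than 2-fold higher. Kif18a, Kif24 and Kif13a were picked for display after their values were seen.
Kif11, chr19:37376302-37376406, plus strand: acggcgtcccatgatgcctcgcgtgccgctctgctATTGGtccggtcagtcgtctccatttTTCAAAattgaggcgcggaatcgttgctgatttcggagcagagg
Kif4, chrX:100625985-100626089, plus strand: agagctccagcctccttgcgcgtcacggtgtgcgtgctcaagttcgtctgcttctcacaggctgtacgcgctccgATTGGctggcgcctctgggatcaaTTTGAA
Kif2c, chr4:117178788-117178892, minus strand: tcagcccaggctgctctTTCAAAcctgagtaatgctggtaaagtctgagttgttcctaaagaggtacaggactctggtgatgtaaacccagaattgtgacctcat
Kif20b, chr19:34922278-34922382, plus strand: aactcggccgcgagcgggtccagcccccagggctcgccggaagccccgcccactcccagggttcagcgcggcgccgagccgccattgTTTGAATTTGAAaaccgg
Kif23, chr9:61946775-61946879, minus strand: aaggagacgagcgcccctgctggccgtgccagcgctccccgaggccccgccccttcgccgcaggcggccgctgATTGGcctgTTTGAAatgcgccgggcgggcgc
Kif15, chr9:122951001-122951105, plus strand: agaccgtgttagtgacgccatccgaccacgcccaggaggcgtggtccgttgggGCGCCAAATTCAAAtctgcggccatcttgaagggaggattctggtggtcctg
Kif18b, chr11:102925100-102925204, minus strand: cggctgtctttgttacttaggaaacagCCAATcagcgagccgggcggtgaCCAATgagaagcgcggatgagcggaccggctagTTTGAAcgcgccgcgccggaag
Kif22, chr7:127042396-127042500, minus strand: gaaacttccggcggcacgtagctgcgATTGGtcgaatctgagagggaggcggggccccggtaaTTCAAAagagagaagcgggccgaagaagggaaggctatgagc
Kif18a, chr2:109280658-109280762, plus strand: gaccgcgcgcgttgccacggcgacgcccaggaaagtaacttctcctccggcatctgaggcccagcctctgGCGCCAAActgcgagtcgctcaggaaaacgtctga
Kif24, chr4:41464824-41464928, minus strand: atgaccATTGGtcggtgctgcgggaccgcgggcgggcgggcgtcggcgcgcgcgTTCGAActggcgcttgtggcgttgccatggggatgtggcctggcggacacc
Kif13a, chr13:46929694-46929798, minus strand: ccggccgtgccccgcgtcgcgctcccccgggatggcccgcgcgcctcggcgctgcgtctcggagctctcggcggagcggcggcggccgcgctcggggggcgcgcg

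A CHR match lay in 9 of the 10 windows of mitotic kinesins. The share was 19.2% of all 32851 promoter windows, 17.6% of those of protein-coding genes and 21% of the windows of genes past the threshold and at least 2-fold higher. Cargo kinesins had a match in 1 of 9 windows (Kif1a), ciliary kinesins in 2 of 9 (Kif24 and Kif27) and those of other roles in 1 of 7 (Kif26b). Within 50 bases of the start, a limit chosen after the positions were seen, 7 of the 10 mitotic windows and 5.31% of all windows held one. Among windows of genes past the threshold and at least 2-fold higher, 9.95% did. The stretches of Kif23, Kif18b and Kif20b show it just after the start, and those of Kif11, Kif15 and Kif22 just before it. In Kif14 the match lay at position -228 from the start.

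A CCAAT box was found in 6 of the 10 mitotic windows against 37.4% of all windows, and both CHR and CCAAT in 6 of 10 against 7.52%. An E2F match was found in 2 of the 10, Kif15 and Kif18a, against 2.26% of all windows, and in 0 of the 25 windows of other motors. In windows of genes past the threshold and at least 2-fold higher, the shares were larger than in all windows. They were 40.8% for CCAAT, 11.6% for CHR with CCAAT and 9.07% for E2F. In Kif15 the E2F match and the CHR match abut. Kif24 had a CHR match at position -26 from its start and 4 CCAAT boxes, and Kif13a had no match of any of these motifs. Base composition differed too, with a median GC content of 60.2% in mitotic windows, 67% in windows of the other motors and 52.7% in all windows, and its part in these shares was not tested. A match is a run of letters and shows no binding.

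**Figure D2:**
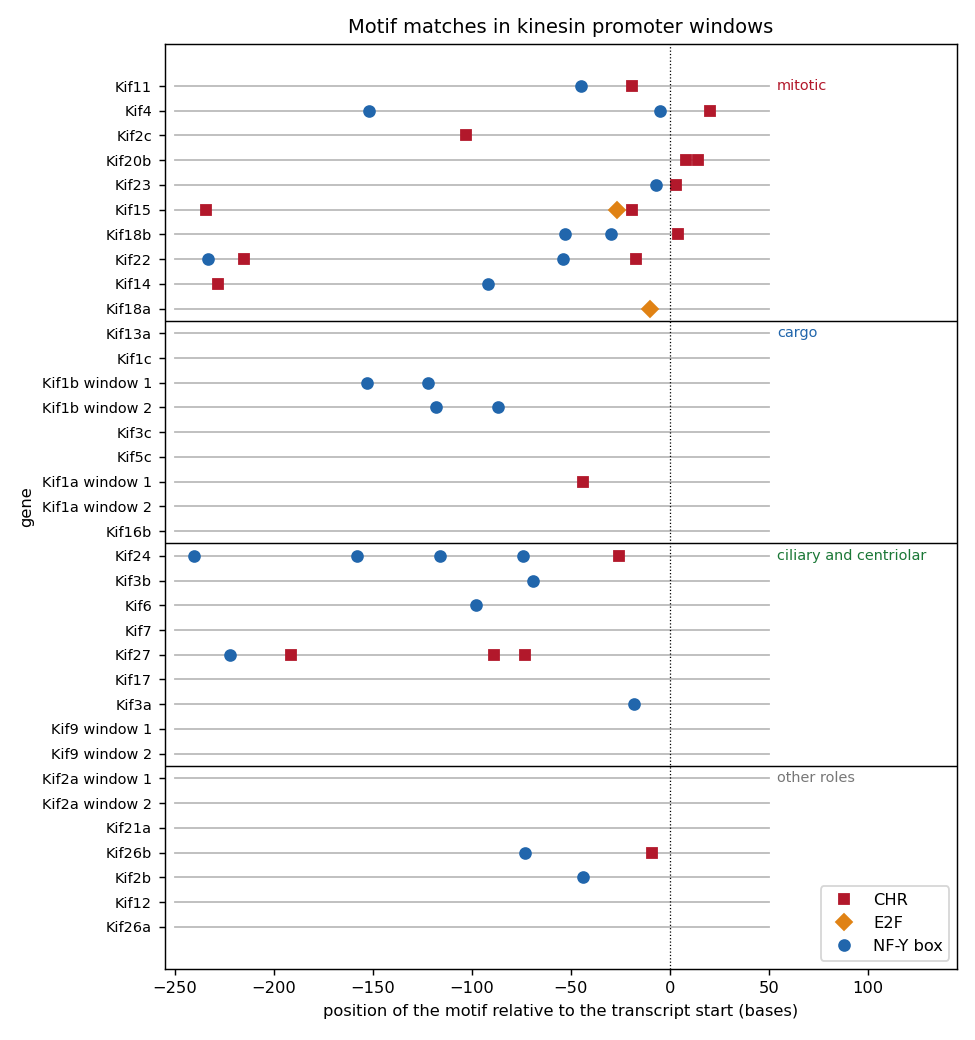
Positions of CHR, E2F and CCAAT (NF-Y) matches, by their first base, in the 35 promoter windows of kinesin motors, in bases from the transcript start, by class. CHR matches, as squares, lie in 9 of 10 mitotic windows and in 4 of the 25 windows of other motors.

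The bipolar spindle is pushed apart by Kif11 (Eg5), a motor of 4 heads that slides microtubules of opposite direction, and Kif15 shares this work later in mitosis. Kif11 read 7.65, 7.97, 7.95 and 7.43 on APT121 arrays 1 to 4, against a lowest, median and highest wild type value of 3.67, 3.90 and 4.10. The groups lay far apart, with a difference of 3.86 ± 0.11 (14.5-fold; limma adjusted p = 2.02e-13), the largest measured among the kinesins. Kif15 read 6.90, 7.01, 7.08 and 6.47 in APT121 and 4.10, 4.41 and 4.53 in wild type. Its APT121 arrays were all higher, with array 4 the lowest of them, and the difference was 2.50 ± 0.11 (5.65-fold; limma adjusted p = 2.41e-11).

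Chromosomes are pushed toward the spindle equator by the chromokinesins Kif4 and Kif22, which ride on chromosome arms. Kif4 read 6.12, 6.58, 6.10 and 6.11 in APT121 and 3.02, 3.21 and 3.46 in wild type. Array 2 stood above the other APT121 arrays, and all 4 lay above wild type by 3.01 ± 0.10 on average (8.08-fold; limma adjusted p = 1.19e-12). Kif22 (Kid) read 6.56, 7.04, 7.05 and 6.09 in APT121 and 4.21, 4.56 and 4.80 in wild type. Its APT121 values had the widest spread of the mitotic class (SD 0.46), yet none reached the wild type range, and the difference was 2.15 ± 0.15 (4.44-fold; limma adjusted p = 8.05e-09).

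Kif2c (MCAK), Kif18a and Kif18b shorten or restrain spindle microtubules at their ends. Kif2c, which releases wrongly attached chromosomes, read 6.84, 7.31, 7.36 and 6.69 in APT121 and 4.05, 4.14 and 4.49 in wild type. The groups did not overlap, and the difference was 2.86 ± 0.12 (7.27-fold; limma adjusted p = 1.49e-11). Kif18b, which works on astral microtubules, read 7.02, 7.39, 7.33 and 6.76 in APT121 and 4.49, 4.66 and 4.82 in wild type, a gap without overlap and a difference of 2.49 ± 0.10 (5.62-fold; limma adjusted p = 1.35e-11). Kif18a, which damps the swinging of aligned chromosomes, read 4.47, 5.24, 4.92 and 4.28 in APT121 and 2.98, 3.23 and 3.52 in wild type. This was the smallest rise of the class, 1.52 ± 0.15 (2.86-fold; limma adjusted p = 4.89e-07), and array 4 came within 0.76 of the highest wild type array, the narrowest gap of the 11.

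The other 4 mitotic motors act in the midzone and in cytokinesis. Kif23 (MKLP1) forms centralspindlin with Racgap1, Kif20a (MKLP2) brings Aurora B and its partners to the midzone, Kif20b serves the end of cytokinesis and Kif14 recruits citron kinase. Kif23 read 7.05, 7.44, 7.30 and 6.72 in APT121 and 3.94, 4.36 and 4.75 in wild type, without overlap (difference 2.77 ± 0.14, 6.83-fold; limma adjusted p = 1.54e-10). Kif20a read 6.91, 7.55, 7.47 and 6.94 in APT121 and 4.15, 4.49 and 4.99 in wild type, with APT121 arrays 2 and 3 above 1 and 4 (difference 2.68 ± 0.16, 6.40-fold; limma adjusted p = 7.41e-10). Kif20b read 6.36, 6.84, 6.68 and 6.10 in APT121 and 3.46, 3.64 and 3.82 in wild type.

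The Kif20b groups were separate and differed by 2.85 ± 0.11 (7.21-fold; limma adjusted p = 7.80e-12). Kif14 read 5.09, 5.43, 5.43 and 5.38 in APT121 and 3.51, 3.71 and 3.89 in wild type. Here APT121 array 1, not array 4, was the lowest, and the difference was 1.62 ± 0.09 (3.08-fold; limma adjusted p = 4.10e-10). A second probe set named Kif14 is dimmer, with means of 2.65 ± 0.11 (SD, n = 8) in wild type and 2.55 ± 0.12 (SD, n = 4) in APT121, and showed no rise (difference -0.11), so the 2 probe sets of this gene disagree.

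All 11 mitotic kinesins were called higher against either set of wild type arrays. The differences ran from 1.61 to 3.89 against arrays 1 to 4, from 1.43 to 3.82 against arrays 5 to 8, and from 1.63 to 3.88 without arrays 5, 6 and 7. Wild type array 6, with high seminal vesicle transcripts, deviated from the wild type mean by a median of -0.02 over the 11 genes. All 287 fits of these genes under the alternatives tried called them higher.

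**Figure D3:**
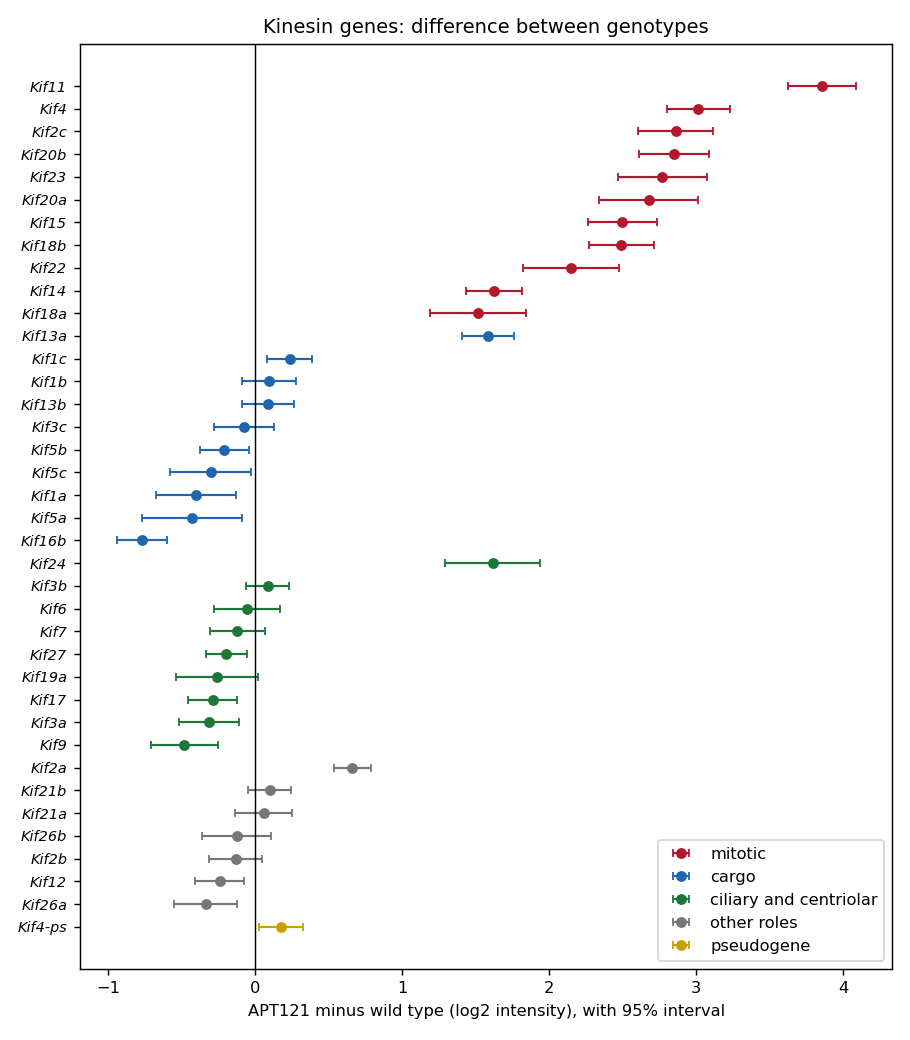
Difference of each kinesin gene between genotypes (APT121 minus wild type, log2 intensity) with its 95% confidence interval, by class. The 11 mitotic motors lie at 1.52 or more, joined by Kif13a among cargo motors and Kif24 among ciliary motors.

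The mitotic kinesins also varied together among the APT121 pools. For 10 of the 11, arrays 2 and 3 both lay above arrays 1 and 4, array 2 or 3 was the highest for all 11, and array 4 was the lowest for 8. Over all 19935 genes, array 2 was the highest for 5045 and array 3 for 5240, and array 4 was the lowest for 5038. The median deviations of the 11 mitotic kinesins from the APT121 mean were -0.12, 0.31, 0.20 and -0.36 on arrays 1 to 4. Mki67, which encodes the proliferation marker Ki-67, deviated by -0.12, 0.31, 0.21 and -0.41. The cargo kinesins showed another order, with medians of -0.05, -0.00, -0.09 and 0.13 and array 4 the highest for 6 of 10. Arrays 2 and 3 both exceeded arrays 1 and 4 for 3 of the 26 motors outside the mitotic class. The share of all genes with this joint order was not counted.

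Smooth muscle and fibroblast markers were also higher on arrays 2 and 3 than on 1 and 4. So were the summed basal, lymphocyte, adipose and nerve markers. The endothelial, neuroendocrine, germ cell and seminal vesicle sums had other orders. Smooth muscle markers summed to 7779, 8853, 9190 and 6863 and fibroblast markers to 2564, 2718, 3199 and 1880 on APT121 arrays 1 to 4. Myeloid markers summed to 1910, 1772, 2472 and 1343, with array 1 above array 2, and luminal markers stayed within 18423 to 19041, highest on array 4. Array 4 was the lowest in the smooth muscle, fibroblast, myeloid, basal, lymphocyte, adipose, nerve and endothelial sums. Whether the make-up of the pools has a part in the order of the mitotic kinesins was not tested.

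**Figure D4:**
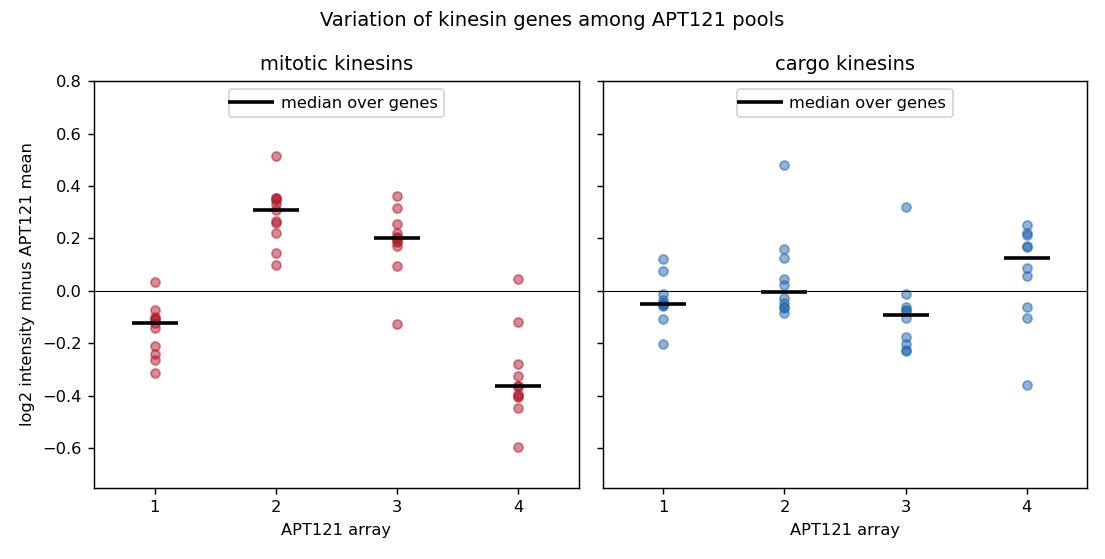
Deviation of each mitotic kinesin (left, 11 genes) and cargo kinesin (right, 10 genes) from its own APT121 mean on the 4 APT121 arrays, in log2 intensity, with a bar for the median over genes. Mitotic medians are 0.31 and 0.20 on arrays 2 and 3 and -0.12 and -0.36 on arrays 1 and 4.

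Genes that work with the mitotic kinesins were higher as well. Of 20 partners in a list, 19 passed the threshold higher and 0 lower, with a median difference of 2.66. The shares over all genes were 22.8% higher and 30% lower, with a median difference of -0.09. Mki67 differed by 4.58 ± 0.13 (limma adjusted p = 2.05e-13), Ect2, the exchange factor that centralspindlin brings to the cell cortex, by 3.86 ± 0.15 (limma adjusted p = 5.15e-12), and Prc1, the midzone bundler that Kif4 carries, by 3.62 ± 0.14 (limma adjusted p = 5.07e-12). Numa1, a pole protein, was the 1 partner that did not pass (0.19 ± 0.09; limma adjusted p = 0.0893). A CHR match lay in 14 of the 19 promoter windows found for the partners, and an E2F match in 0. The CHR share was 19.2% of all windows and 21% of those of genes past the threshold and at least 2-fold higher. The kinesin motor Cenpe, whose symbol lies outside the rule, read 6.18, 6.82, 6.84 and 6.36 in APT121 and 3.15, 3.62 and 3.79 in wild type. Its groups were separate, 3.01 ± 0.13 apart (limma adjusted p = 2.85e-11). A probe set shared by the minus-end motor Kifc1 and its near copy Kifc5b differed by 0.56 ± 0.09 (limma adjusted p = 7.32e-05), and the 2 genes cannot be told apart there.

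The 26 motors outside the mitotic class differed less. Their median difference was -0.13, 22 of them differed by less than 0.5 in either direction, and 2 differed by 1 or more. Of all genes, 1.95% were past the threshold and at least 2-fold lower, and none of the 26 was. The wild type means of 15 of the 26, among them 7 of the 9 ciliary motors, lay below the median gene (5.38). Small falls of such dim probe sets are uncertain, since no detection calls were used.

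Among the cargo kinesins, 2 of 10 rose, 4 fell and 4 did not pass, and the class median was -0.14. Of all genes 22.8% were higher and 30% lower, with a median of -0.09, so these counts are close to those of genes in general. Repeated quantile normalisation called 1 higher and 3 lower, and 3880 higher and 5498 lower of all 19935 genes. Kif13a, a kinesin-3 motor of endosomes and of mannose-6-phosphate receptor transport, was the exception in size. It read 9.05, 8.87, 8.70 and 9.10 in APT121 and 7.19, 7.35 and 7.51 in wild type. All APT121 arrays were higher, by 1.59 ± 0.08 (3.00-fold; limma adjusted p = 2.07e-10), and Kif13a was highest on array 4, where 0 of the 11 mitotic motors were highest. Its paralog Kif13b differed by 0.09 with a 95% interval of -0.09 to 0.26 (limma adjusted p = 0.391).

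Kif16b, a kinesin-3 motor of early endosomes, moved the other way. It read 7.75, 7.85, 7.72 and 7.89 in APT121 and 8.32, 8.58 and 8.78 in wild type. No APT121 array reached the wild type range, and the difference was -0.77 ± 0.08 (limma adjusted p = 7.07e-07). Of all genes, 16.9% had all APT121 arrays below all wild type arrays.

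Kinesin-1, the main carrier of vesicles and mitochondria, has 3 heavy chains. The widely expressed Kif5b read 9.29, 9.24, 9.22 and 9.55 in APT121 and 9.31, 9.57 and 9.64 in wild type, with array 4 inside the wild type range. It was lower by a small step (-0.21 ± 0.08; limma adjusted p = 0.0332), and the call ended without any 1 of wild type arrays 5, 7 and 8 or APT121 arrays 1, 2 and 3 (adjusted p = 0.0510 to 0.104). The neuronal Kif5a (-0.43 ± 0.16; limma adjusted p = 0.0337) fell past the threshold too, while Kif5c did not pass (-0.30 ± 0.13; limma adjusted p = 0.0609). The call of Kif5a ended without any 1 of wild type arrays 5, 6 and 8 or APT121 arrays 1, 2 and 4 (adjusted p = 0.0513 to 0.108). Kif5c passed without wild type array 2 (adjusted p = 0.0278) or APT121 array 2 (0.00319).

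Kif1a, the axonal carrier of synaptic vesicle precursors, was lower by 0.40 ± 0.13 on the log2 scale (limma adjusted p = 0.0154), a call that ended without APT121 array 1 (adjusted p = 0.0504). Kif1a and Kif5a were highest on wild type array 7, at 5.48 and 5.02, where nerve markers were also highest. Against wild type arrays 1 to 4, which were low in nerve markers, neither passed (Kif1a -0.21, limma adjusted p = 0.0905; Kif5a -0.17, limma adjusted p = 0.289). Against wild type arrays 5 to 8 both did (Kif1a -0.60, limma adjusted p = 0.00109; Kif5a -0.69, limma adjusted p = 0.00108). Over the whole nerve list of 12 genes, the APT121 sums (338 to 486) lay above those of wild type arrays 1 to 4 (253 to 270), with Ncam1 and Gap43 higher, Cdh19 and Sox10 lower and 8 not past the threshold. Among its neuronal genes, Snap25 read 3.69 to 3.82 in APT121, 3.71 to 3.90 on wild type arrays 1 to 4 and 4.46 to 5.25 on arrays 5 to 8. Stmn2 read 3.61 to 4.06, 3.64 to 4.04 and 4.98 to 6.19 in the same order. These 2 genes were picked after their values were seen.

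Kif1c, a carrier of Rab6 vesicles and of messenger RNA, was higher by 0.24 ± 0.07 (limma adjusted p = 0.0116), with APT121 array 3 inside the wild type range. This call ended without APT121 array 4 (adjusted p = 0.0570). It also ended under repeated quantile normalisation, where the difference was 0.12 (adjusted p = 0.176), and with only wild type arrays 5 to 8 as controls (0.20, adjusted p = 0.0778). The second probe set of Kif1c differed by 0.36, in the same direction. Kif1b, which carries mitochondria and synaptic vesicle precursors, differed by 0.10 (95% interval -0.09 to 0.28), and Kif3c, a kinesin-2 subunit of neurons, by -0.08 (95% interval -0.28 to 0.13). Without APT121 array 1, 3 cargo kinesins were called in place of 6.

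Among the kinesins of cilia and centrioles, 1 of 9 rose, 4 fell and 4 did not pass, with a class median of -0.20. These counts too are near the 22.8% higher and 30% lower of all genes. Kif24, which shortens centriolar microtubules and holds back the assembly of cilia in cycling cells, read 5.03, 5.73, 5.35 and 5.23 in APT121 and 3.25, 3.72 and 4.20 in wild type. All APT121 arrays were higher, by 1.62 ± 0.15 (3.07-fold; limma adjusted p = 2.03e-07). Kif24 peaked on APT121 array 2, as did 8 of the 11 mitotic motors. With Kif24 counted, so did 4 of the 9 ciliary kinesins, and 5045 of all 19935 genes. Kif24 was lowest on array 1, where 2 of the 11 mitotic motors were lowest.

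The motors that build and work in the cilium showed no such rise. Kif3a and Kif3b are the motor subunits of heterotrimeric kinesin-2, which drives intraflagellar transport. Kif3a read 5.71, 6.02, 5.78 and 5.89 in APT121 and 5.99, 6.12 and 6.55 in wild type, and array 2 overlapped the wild type range. It was lower by 0.31 ± 0.10 on the log2 scale (limma adjusted p = 0.0128), a call that ended without APT121 array 1 (adjusted p = 0.0541). Kif3b differed by 0.08 (95% interval -0.06 to 0.23; limma adjusted p = 0.302).

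Kif17, the homodimeric kinesin-2 motor, and Kif9, a motor of motile cilia and sperm flagella, both fell, by -0.29 ± 0.08 (limma adjusted p = 0.00610) and -0.48 ± 0.11 (limma adjusted p = 0.00132). Kif9 had all APT121 arrays (4.01 to 4.11) below all wild type arrays (4.31 to 4.95), while Kif17 overlapped through APT121 array 3 (4.39). Kif27, a relative of Kif7 in motile cilia, was lower by 0.20 ± 0.07 on the log2 scale (limma adjusted p = 0.0214), a call that ended without APT121 array 1 (adjusted p = 0.0835). Kif7, the regulator of Hedgehog signalling at the cilium tip, differed by -0.12 (95% interval -0.31 to 0.07), and its second probe set by -0.34. With the mean of both, Kif7 passed (-0.23, limma adjusted p = 0.0282). Kif19a, which sets the length of motile cilia, differed by -0.26 (95% interval -0.54 to 0.02) and passed without wild type array 2 (adjusted p = 0.0142). Kif6, a motor of ependymal cilia, differed by -0.06 (95% interval -0.28 to 0.17). Without APT121 array 1, 3 ciliary kinesins were called in place of 5.

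Of the motors with other roles, 1 of 7 rose, 2 fell and 4 did not pass. These counts are also near the 22.8% higher and 30% lower of all genes. Kif2a, a depolymerising motor of the same family as Kif2c that works at spindle poles and in neurons, read 7.85, 7.92, 7.85 and 7.94 in APT121 and 7.13, 7.21 and 7.38 in wild type. Its groups were separate but only 0.66 ± 0.06 apart (1.58-fold; limma adjusted p = 1.35e-07). The third member of that family, Kif2b, differed by -0.13 (95% interval -0.31 to 0.04). With Kif2a and Kif2b counted as mitotic, 12 of 13 mitotic motors were higher.

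Kif26a, an atypical kinesin that binds microtubules without moving, was lower by 0.34 ± 0.10 on the log2 scale (limma adjusted p = 0.0112), and Kif12, a motor of kidney and other epithelia, by 0.24 ± 0.08 (limma adjusted p = 0.0161). Both overlapped the wild type range, and both calls ended without APT121 array 2 (adjusted p = 0.0617 for Kif26a and 0.0887 for Kif12), which left 1 call in this class in place of 3. Kif26b differed by -0.13 (95% interval -0.36 to 0.11) and its second probe set by -0.36, and with the mean of both it passed (-0.24, limma adjusted p = 0.0264). The kinesin-4 motors Kif21a and Kif21b, which pause microtubule growth, differed by 0.06 (95% interval -0.14 to 0.25) and 0.10 (95% interval -0.05 to 0.25). The pseudogene Kif4-ps differed by 0.18 ± 0.07 (limma adjusted p = 0.0471), a call lost in 17 of 25 alternatives, among them the omission of any 1 of wild type arrays 1 and 3 to 8 and APT121 arrays 1 and 4. The second probe set of Kif4-ps differed by 0.12. Whether probes of this pseudogene also read Kif4 transcripts was not tested, so its reading is uncertain.

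Repeated quantile normalisation also ended the calls of Kif5a (-0.34, adjusted p = 0.0930), Kif27 (-0.086, adjusted p = 0.344) and Kif12 (-0.14, adjusted p = 0.130). With only wild type arrays 1 to 4 as controls, Kif5b (-0.15, adjusted p = 0.223), Kif27 (-0.21, adjusted p = 0.0622), Kif26a (-0.26, adjusted p = 0.109) and Kif12 (-0.19, adjusted p = 0.109) did not pass.

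**Figure D5:**
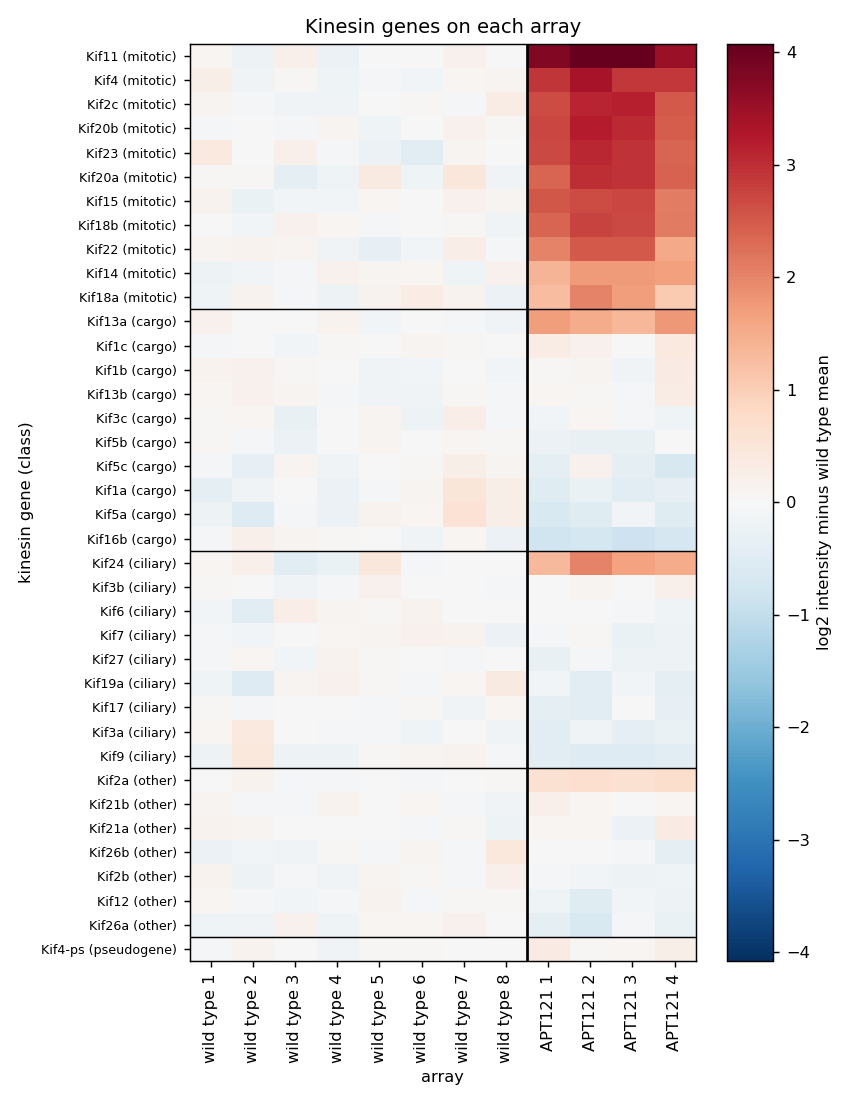
Log2 intensity of each kinesin gene minus its wild type mean on the 8 wild type and 4 APT121 arrays, in colour, grouped by class. The mitotic block, Kif13a and Kif24 are red on the 4 APT121 arrays, Kif2a is pale red, and Kif16b is blue.

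Genes that work around the cargo and ciliary motors were counted beside all genes, of which 22.8% were higher and 30% lower, and nothing particular to a list is read from its count. Of 9 measured relatives and associated proteins outside the symbol rule, 3 were higher, Cenpe, the light chain Klc3 (0.40) and the kinesin-2 associated protein Kifap3 (0.31), and 2 lower, Kifc2 (-0.36) and the kinesin-binding protein Kifbp (-0.19). Of 14 cargo adaptors 2 were higher and 4 lower, with the mitochondrial adaptors Trak1 (0.58 ± 0.09) and Trak2 (0.38 ± 0.08) above and Fez2 (-0.45 ± 0.06) below. Under array median centring or repeated quantile normalisation, 2 adaptors were higher and 8 lower. Of all 19935 genes, 4103 were higher and 7824 lower after median centring, and 3880 and 5498 after repeated quantile normalisation. Of 24 subunits and partners of dynein, the motor of the opposite direction, 5 were higher, led by its heavy chain Dync1h1 (0.69 ± 0.07), and 8 lower, led by Dctn3 (-0.95 ± 0.09) and Dynlt3 (-0.74 ± 0.07).

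Of 37 genes of intraflagellar transport and the primary cilium 12 were higher and 9 lower, or 10 and 17 after quantile normalisation over the genes tested. That normalisation called 3880 of all 19935 genes higher and 5498 lower. Ift80 (1.77 ± 0.08; limma adjusted p = 5.28e-11) and Ift20 (-1.38 ± 0.06; limma adjusted p = 3.97e-11), both subunits of the particle that kinesin-2 carries, differed in opposite directions with no overlap between groups, and Bbs9 of the BBSome was higher by 0.99 ± 0.09. Of 16 motile cilium genes none was higher and 7 were lower, among them Rsph9 (-0.68 ± 0.08), Foxj1 (-0.38 ± 0.08) and Rsph1 (-0.34 ± 0.11). Without APT121 array 2 the count was 3. The wild type means of Foxj1 (4.38) and Rsph1 (4.34) lay below the median gene (5.38). Of 13 tubulins, which make up microtubules and centrioles, 4 were higher and 3 lower, with Tube1 (1.61 ± 0.15) and Tubb5 (1.32 ± 0.07) above and Tuba1a (-1.02 ± 0.08) below.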

How the data were processed

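Total RNA of frozen anterior prostate, pooled from 2 mice per array, was hybridised to GeneChip Mouse Gene 1.0 ST arrays, per the labels and the series' design text. The deposited table holds a linear intensity for each probe set (transcript cluster) on each array, normalised by RMA, per the submitters' processing notes. No software version is given in the sources used here. RMA's quantile step gives every array the same distribution before summarising, which hides any change in total RNA. Array medians were 32.1 to 33.7, and detection calls were not used.

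Log2 of the deposited intensity was taken. The platform annotation gave 21780 of the 28815 clusters 1 symbol, 1605 several and 5430 none. The last 2 kinds were left out. The cluster with the highest mean stood for each of 998 genes with several, leaving 19935 genes, unfiltered. Of the 38 kinesin genes, 6 had 2 clusters.

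Genotypes were compared over all 12 arrays with limma 3.58.1 (lmFit, eBayes, genotype alone, two-sided) in R 4.3.3, tested on simulated data first. Members, classes and gene lists were chosen with earlier results of these data known. All kinesins were named, with values by array for mitotic members and for others past the threshold by 1 or more, and up to 3 members past the threshold with the largest difference from each list, plus Mki67. Other genes given by array, such as Cenpe, Kif16b, Kif5b, Kif3a and Kif2a, and further list members were chosen with their values in view.

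Alternatives were array median centring, repeated quantile normalisation, leaving out the lowest 25% or 50% of genes, array weights, eBayes with trend and robust variances, averaging the clusters of a gene, adding clusters with several symbols, replicate number as a block, subsets of wild type arrays, leaving out each array, a 1.5-fold minimum, other class assignments, exact permutation tests and a SAM-type statistic, after the SAM at a 5% false discovery rate that the series' design text names. No genome build is given for the values; promoter coordinates are those of RefSeq on GRCm38.p6. Motor proteins' sequences and promoter windows absent from the reference tables were not used here.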

Additional observations from a re-analysis of the deposited data

Results flagged for a closer look

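Of 76 groups of arrays tested (38 kinesin genes in each genotype), 3 held an array that stood apart by Dixon's criterion, and chance gives about 1 in 20. Kif14 read 5.09 on APT121 array 1 against 5.38 to 5.43 on the other APT121 arrays. Kif4 read 6.58 on APT121 array 2 against 6.10 to 6.12 on the others. Kif3a read 6.55 on wild type array 2 against 5.99 to 6.24 on the other wild type arrays. The Kif14 and Kif4 arrays all stayed above the wild type range.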

How the results depend on the processing

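Leaving out single arrays gave a mitotic count of 11 to 11. With the members of the class unchanged, this count stayed at 11 except without the lowest 50% of genes, where 2 of 2 remaining members were called. There the partners fell to 12, the ciliary kinesins to 1, those of other roles to 1 and the motile cilium genes to 2. The median of the cargo and ciliary kinesins turned to 0.085 there, with fewer members tested. A 1.5-fold minimum left 1888 genes, 1 cargo, 1 ciliary and 0 other kinesins, 1 relative, 0 adaptors, 1 dynein, 4 primary cilium and 0 motile cilium genes and 4 tubulins. Wild type arrays 1 to 4 alone gave 3 cargo kinesins, 1 of other roles and 4 motile cilium genes; arrays 5 to 8 alone gave 3 relatives; without arrays 5 to 7, 1 kinesin of other roles was called. Median centring gave 10 adaptors, repeated quantile normalisation 10 adaptors and 4 motile cilium genes, and for kinesins of other roles 1 higher and 1 lower, and the SAM-type statistic 10 adaptors, 11 motile cilium genes, 11 tubulins and 13332 genes in all. After repeated quantile normalisation the relatives were 2 higher and 5 lower, beside 3880 higher and 5498 lower of all 19935 genes.

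Leaving out single arrays gave 3 to 7 cargo kinesins, 3 to 6 ciliary, 1 to 3 of other roles, 19 to 20 partners, 4 to 5 relatives, 5 to 8 adaptors, 12 to 14 dynein, 18 to 22 primary cilium and 3 to 7 motile cilium genes, 6 to 8 tubulins and 8979 to 10493 genes in all. The direction turned for 4 kinesins, none past the threshold. Repeated quantile normalisation gave -0.037 for Kif13b, -0.086 for Kif3b, 0.043 for Kif6 and -0.093 for Kif21a. Kif21a was -0.0078 against wild type arrays 1 to 4, and -0.031 (without APT121 array 4) to 0.16 with single arrays left out. The cause of these shifts was not tested.

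With replicate number as a block (arrays 1 to 4 of each genotype), 11 mitotic and 3 cargo kinesins were called, as against wild type arrays 1 to 4 without the block. Kinesins of other roles numbered 2 with the block and 1 without it, and motile cilium genes 5 and 4. Each number holds 1 array of each genotype, so the block cannot change a difference, and Kif21a was -0.0078 either way. Deviations of same-numbered arrays correlated at 0.04, 0.04, 0.12 and -0.01 across genes, and those of differently numbered arrays at -0.09 to 0.09. The labels do not say what the replicate numbers mark, and these correlations cannot decide it.

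Precision rests on 4 and 8 pools. Kif13a and Kif24 kept their calls in all alternatives run, 27 and 26. Small falls did not: Kif5a lost its call in 12 of 26, Kif5b in 10 of 27, Kif12 in 6 of 26 and Kif27 in 6 of 25.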

Other observations

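Other marker lists gave the following values, beside 22.8% higher and 30% lower over all genes. Of 7 adipose markers 6 were lower in APT121, of 8 neuroendocrine markers 5 were lower, and none of either list was higher. Of 9 lymphocyte markers 3 were higher and 1 lower, led by Cd3g (1.59 ± 0.13). Of 12 nerve markers 2 were higher, Ncam1 (1.24 ± 0.20) and Gap43 (0.96 ± 0.35), and 2 lower. Of 8 germ cell markers 1 was higher and 2 lower, with Acrv1 at -1.68 ± 0.15. Of 7 seminal vesicle markers 3 were higher, with Svs2 at 6.17 ± 1.26.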
